A study of Gallus gallus with 18 samples.

Results

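The genes described here are the membrane and secreted metalloproteases of the ADAM, ADAMTS and MMP families together with their protein inhibitors, the TIMPs, in the developing chick trigeminal ganglion. They were chosen by a symbol pattern, set with earlier results of these data known. The pattern took every row of the deposited gene table whose name begins with ADAM, MMP or TIMP followed by a digit, or with ADAMTS. That gave 52 of the 30108 genes in the table, of which 13 are ADAM genes, 18 ADAMTS genes, 4 ADAMTS-like genes, 14 MMP genes and 3 TIMP genes. Poly(A)-enriched RNA came from pooled trigeminal ganglia of wild-type embryos at 3 Hamburger-Hamilton (HH) stages, the series that orders chick embryos by external form. The stages were HH13-14, then HH15-16, then HH17-18. Each had 3 pools labelled as biological replicates, and each pool gave 2 technical libraries, 1 on lane 7 and 1 on lane 8. No group carried a transgene or a treatment, and each value is an average over the ganglia of a pool and over all cell types in them. The number of embryos in a pool is not given in the sources used here.

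ADAM proteins sit in the cell membrane and, where they carry an intact catalytic site, shed the outer parts of adhesion molecules, growth factor precursors and Notch pathway proteins. ADAMTS proteases are secreted and cut proteoglycans such as versican, the propeptides of fibrillar collagens and other matrix proteins, while ADAMTS-like proteins have the same accessory domains without a protease and bind the microfibril network. MMPs cut collagens, laminins and other matrix proteins, some as secreted enzymes and some anchored in the membrane, and TIMPs block the active sites of MMPs and of certain ADAM and ADAMTS enzymes. In the forming trigeminal ganglion, neural crest cells and placode cells leave their epithelia, move through head matrix and condense, and ADAM10 and ADAM19 are known in chick cranial neural crest for cutting cadherin-6B.

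The 18 libraries held 26505315 to 34424153 counts, and the 9 pools, with technical libraries summed, held 53458986 to 68083147. The spread between pools of a stage, as a biological coefficient of variation over genes, was 12.3% for HH13-14, 24.7% for HH15-16 and 21.2% for HH17-18. Replicate 1 of HH15-16 stood apart, with the lowest summed level of a list of 9 detected head mesenchyme markers (924 CPM, against 1322 to 2319 CPM in the other pools) and the highest of 7 neural tube markers (205 CPM, against 32.3 to 119 CPM). CPM is a gene's count relative to the library size, on the usual CPM scale, after scaling by the trimmed mean of M-values (TMM). Markers of the labelled tissue were present, with TUBB3 of neurons at stage means of 771 to 977 CPM and SOX10 of neural crest and glia at 149 to 195 CPM. In pooled tissue, fewer cells of a type and less RNA per cell cannot be told apart. CPM is not corrected for transcript length, so levels are compared between stages and pools and not between genes.

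Over the whole interval, 7 members rose from HH13-14 to HH17-18 and none fell past the threshold, an adjusted p under 0.05 in edgeR's quasi-likelihood test over 17724 genes. The 7 were the gelatinase MMP2, the inhibitor TIMP4, ADAM11, ADAM12, ADAMTS17, ADAMTS18 and ADAMTSL2. They stood among 47 members that passed the filter on low counts, that is 14.9%, where 2.4% of all genes tested were called higher and 2.12% lower. At an unadjusted p under 0.05, edgeR gave 17 members higher and 3 lower, against 11.8% and 9.83% of all genes. DESeq2, another count test, called 12 members higher and 3 lower at an adjusted p under 0.05, and included all 7. Over all genes it called more than edgeR as well, 1037 higher and 747 lower of 18542 tested.

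**Figure D1:**
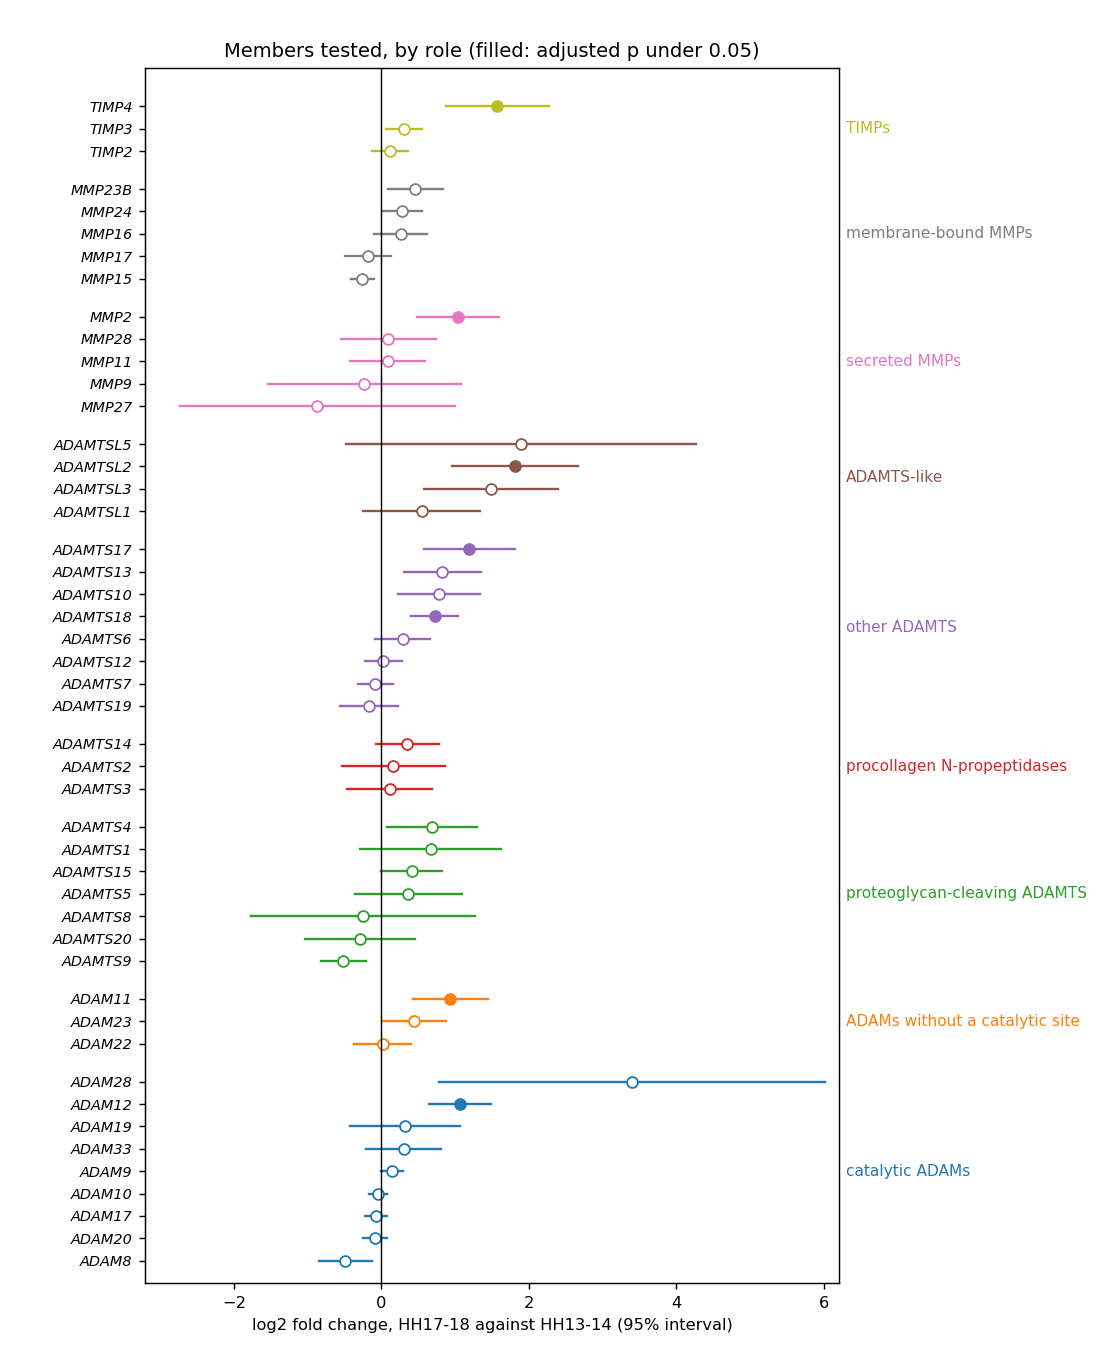
Log2 fold change of HH17-18 against HH13-14 (horizontal axis) with its 95% interval for the 47 members tested, grouped by role. Filled points mark the 7 members at an adjusted p under 0.05, all to the right of 0. The estimates for ADAM10, ADAM17 and ADAM20 lie near 0 with short intervals, and those of ADAM28, ADAMTSL5 and MMP27, which had few counts, have long ones.

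The direction across members leaned upward. The log2 fold change over the interval was above 0 in 34 of the 47 members tested and below 0 in 13, with a median of 0.29, beside a median of 0.02 over all genes tested. The stage means rose through both steps in 22 members, that is 46.8%, against 25.7% of all genes tested. They fell through both steps in 7 members, 14.9% against 21.5%. Pools of HH17-18 lay wholly above those of HH13-14 in 17 members (36.2%, against 16% of all genes tested) and wholly below in 4 (8.51% against 15.4%).

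The number of calls changed when pools were left out, in fits that also had fewer pools to test with. In the members called, every pool of HH17-18 lay above every pool of HH13-14, so leaving out a pool could not turn their direction. Without pool 1 or pool 2 of HH13-14, or pool 2 of HH17-18, edgeR called 0 members higher over the interval, without pool 3 of HH13-14 or of HH17-18 it called 1 (ADAM12 and TIMP4, respectively), and without pool 1 of HH15-16 it called 11 higher and 2 lower. In these fits the count over all genes moved as well, from 425 higher to 27 to 133 in the first 5 and to 786 in the last.

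Among the secreted MMPs, MMP2 rose. MMP2 (ENSGALG00010025414, chromosome 11, 3350875 to 3385583 in GRCg7b), or gelatinase A, cuts type IV collagen and denatured collagens. It had 61.9, 69.3 and 59.5 CPM in pools 1 to 3 of HH13-14, 59.5, 111 and 102 CPM at HH15-16, and 118, 180 and 95.7 CPM at HH17-18. All 3 pools of HH17-18 were above all of HH13-14, and pool 1 of HH15-16 was at the level of HH13-14. The mean went from 63.5 ± 5.09 to 131 ± 43.6 CPM (SD, n = 3), a 2.06-fold rise, or 1.04 on the log2 scale (SE 0.25, edgeR adjusted p 0.0442). The call was lost in 8 of 19 alternative settings, namely lane 7 alone, each HH13-14 or HH17-18 pool left out in turn and a threshold of 0.01. That threshold was applied to the main fit, so the loss there was fixed by the main adjusted p, for this and the other called members. Over all 19 the log2 fold change ran from 0.75 to 1.21 and the edgeR, DESeq2 or limma adjusted p from 0.00131 to 0.160.

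The other secreted MMPs that passed the filter did not pass the test. MMP11, stromelysin 3, had stage means of 14.3, 12.4 and 15.2 CPM, and its pools of HH17-18 spanned 10.3 to 20.6 CPM. MMP28, or epilysin, had 5.53, 4.04 and 5.91 CPM. Their log2 fold changes over the interval were 0.08 and 0.10, with 95% intervals of -0.42 to 0.59 and -0.54 to 0.74. The gelatinase MMP9 was scarce, at 0.241, 0.597 and 0.201 CPM by stage.

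A group of 5 MMP genes on chromosome 1 had few or no counts. MMP13, MMP10, MMP1, MMP27 and MMP7 lie within chromosome 1, 182278268 to 182409907 (RefSeq, GRCg7b). Over all 9 pools together they had 30, 0, 2, 81 and 13 counts. MMP27 passed the filter, with 4 to 18 counts in each pool of HH13-14 and 0, 8 and 10 at HH17-18, and its log2 fold change of -0.87 had a 95% interval of -2.73 to 0.99. MMP13, a collagenase, had 1, 0 and 0 counts at HH13-14 and 11, 6 and 8 at HH17-18, too few to be tested. ADAM20L, which also was not tested, had 6, 6 and 6 counts at HH13-14, 4, 4 and 2 at HH15-16 and 14, 4 and 8 at HH17-18. For MMP10, the count of 0 in a pool allows a level of up to 0.0434 to 0.0561 CPM (3 counts), depending on the pool, if counting error is Poisson. Technical libraries of a pool differed by more than that (chi-square per degree of freedom 2.14 to 2.33), so the limit is too low.

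None of the 5 membrane-bound MMPs passed the test. In 4 of them the pools of HH17-18 lay wholly apart from those of HH13-14, with MMP15 lower and MMP16, MMP23B and MMP24 higher. Of all genes tested, 16% were wholly higher and 15.4% wholly lower in this way. The median absolute log2 fold change of the 5 was 0.26, beside 0.21 over all genes tested. MMP15 (MT2-MMP) had 269, 246 and 236 CPM in the pools of HH13-14, 221, 223 and 228 CPM at HH15-16 and 208, 223 and 196 CPM at HH17-18. Its pools did not overlap between the outer stages, but the change of -0.26 on the log2 scale (SE 0.07, edgeR adjusted p 0.0721) missed the threshold, and passed it in 3 of 19 alternatives (DESeq2, limma voom, and without pool 1 of HH15-16), which ran from 0.0235 to 0.254. MMP23B went from 3.72 ± 0.259 to 5.12 ± 0.163 CPM and MMP24 (MT5-MMP), known in neurons for cutting N-cadherin, from 14.4 ± 0.749 to 17.4 ± 1.15 CPM (SD, n = 3). By edgeR MMP23B had an adjusted p of 0.142 and MMP24 of 0.227. MMP16 (MT3-MMP) went from 17.4 to 20.8 CPM (edgeR adjusted p 0.394). MMP17 (MT4-MMP) went from 62.8 to 46.4 CPM at HH15-16 and had 55.6 CPM at HH17-18, with overlap of the outer stages (edgeR adjusted p 0.516).

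Of the 3 inhibitors, TIMP4 rose. TIMP4 (ENSGALG00010027909, chromosome 12, 4912350 to 4936755) had 1.19, 1.85 and 2.20 CPM at HH13-14, 2.54, 2.20 and 3.74 CPM at HH15-16 and 4.70, 6.91 and 3.98 CPM at HH17-18. The outer stages did not overlap, while HH13-14 and HH15-16 met at 2.20 CPM. Every pool of HH17-18 was above every earlier pool. The rise was 2.98-fold, which is 1.57 on the log2 scale (SE 0.32, edgeR adjusted p 0.0267). The call was lost in 5 of 19 alternatives, with adjusted p-values from 2.97e-05 to 0.110. In RefSeq the span of TIMP4 overlaps SYN2, a synapsin gene of neurons. Whole gene spans were compared and not exons, and the strand setting is not given. Whether the 2 genes shared reads was not tested. SYN2 had 0.760 ± 0.120 CPM at HH13-14 and 1.08 ± 0.421 CPM at HH17-18 (SD, n = 3, log2 fold change 0.51, edgeR adjusted p 0.426).

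TIMP2, which blocks MMP2 and also takes part in its activation at the cell surface, did not pass the test. It had 57.7, 61.2 and 52.1 CPM at HH13-14, 51.0, 53.9 and 59.6 CPM at HH15-16 and 54.3, 70.8 and 60.2 CPM at HH17-18. The stages overlapped, and the log2 fold change was 0.12 with a 95% interval of -0.13 to 0.36 (edgeR adjusted p 0.599). TIMP3, which binds to the matrix and blocks ADAM17 and several ADAMTS enzymes as well as MMPs, had 35.0, 39.8 and 43.6 CPM at HH13-14, 43.8, 44.7 and 42.0 CPM at HH15-16 and 49.7, 42.8 and 54.1 CPM at HH17-18. It differed by 0.31 on the log2 scale (SE 0.11, edgeR adjusted p 0.139), and pool 2 of HH17-18 lay within the range of HH13-14. It passed the threshold in 1 of 19 alternatives, limma voom.

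The ratio of MMP2 to TIMP2 CPM, a comparison chosen after the values were seen, was 1.07, 1.13 and 1.14 in the pools of HH13-14, 1.17, 2.07 and 1.71 at HH15-16 and 2.17, 2.54 and 1.59 at HH17-18. The outer stages did not overlap, and the mean log2 ratio was higher by 0.89 at HH17-18. No test is given, since the pair was chosen for its values. The ratio is of counts and not of molecules, since length is not corrected for.

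**Figure D2:**
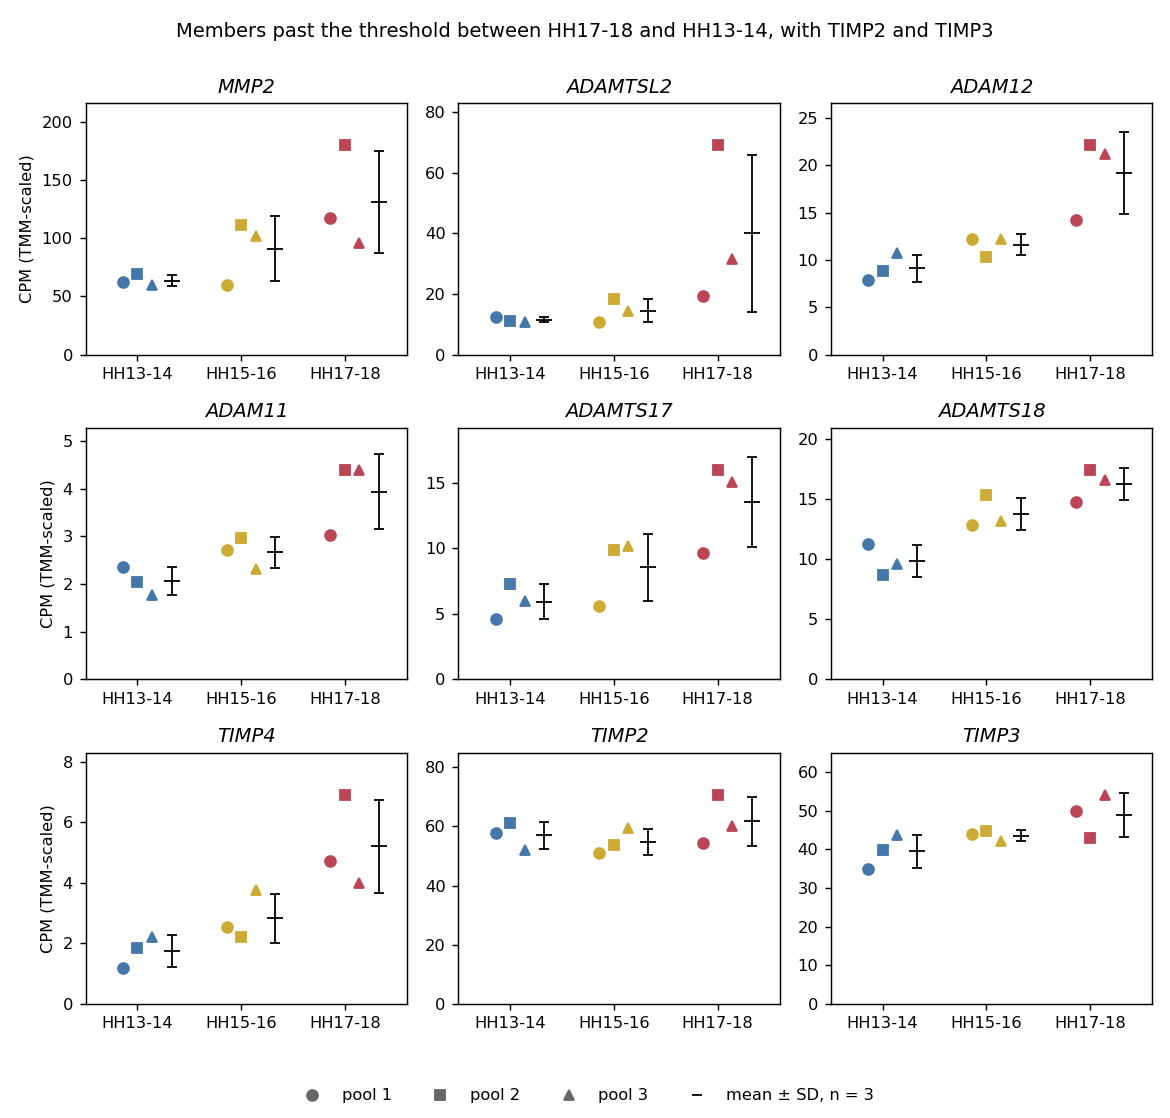
CPM (TMM-scaled, vertical axes from 0) in each pool at the 3 stages for the 7 members past the threshold and for TIMP2 and TIMP3. Symbols give the pool number and bars the mean ± SD of 3 pools. In the 7 members every pool of HH17-18 lies above every pool of HH13-14, and in TIMP2 and TIMP3 the outer stages overlap.

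Of the 9 catalytic ADAMs tested, ADAM12 rose and none fell. ADAM12 (ENSGALG00010002570, chromosome 6, 33362379 to 33543614), or meltrin alpha, is a sheddase known from mesenchyme and forming muscle. It had 7.87, 8.82 and 10.7 CPM at HH13-14, 12.3, 10.3 and 12.2 CPM at HH15-16 and 14.2, 22.1 and 21.2 CPM at HH17-18. The HH17-18 pools were above all pools of both earlier stages. Over the interval it rose 2.10-fold, or 1.07 on the log2 scale (SE 0.19, edgeR adjusted p 0.0179), and the call was lost in 5 of 19 alternatives, with adjusted p-values from 5.47e-06 to 0.0904.

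ADAM10 and ADAM17, sheddases with broad known substrates, had small differences with narrow intervals, and so did ADAM20. ADAM10, which cuts Notch and classical cadherins, had 209, 210 and 213 CPM at HH13-14, 206, 212 and 216 CPM at HH15-16 and 204, 209 and 200 CPM at HH17-18. Its log2 fold change over the interval was -0.04 with a 95% interval of -0.17 to 0.08 (edgeR adjusted p 0.693). ADAM17, the sheddase of TNF and of EGF receptor ligands, gave -0.07 with an interval of -0.22 to 0.08, and ADAM20 gave -0.09 with an interval of -0.25 to 0.07. ADAM9 went from 85.4 ± 2.08 to 94.7 ± 4.72 CPM (SD, n = 3, log2 fold change 0.15, edgeR adjusted p 0.233).

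ADAM19, or meltrin beta, and ADAM33, which RefSeq also names ADAM13 in chicken and which is known as ADAM13 in frog for cranial neural crest migration, varied more between pools. ADAM19 had stage means of 6.97 ± 1.47, 5.96 ± 2.63 and 8.74 ± 2.32 CPM (SD, n = 3). Its lowest pool was pool 1 of HH15-16, at 3.05 CPM. ADAM33 had 32.8 ± 1.54, 34.2 ± 9.12 and 40.5 ± 12.4 CPM, with 23.7 CPM in pool 1 of HH15-16 and 54.1 CPM in pool 2 of HH17-18. Over the interval the log2 fold change of ADAM19 was 0.32 (edgeR adjusted p 0.625) and that of ADAM33 was 0.30 (edgeR adjusted p 0.484).

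ADAM8 and ADAM28, sheddases known from leukocytes, had values in opposite directions. ADAM8 had 10.8, 10.2 and 11.6 CPM at HH13-14, 12.2, 13.8 and 9.17 CPM at HH15-16 and 7.74, 7.72 and 7.80 CPM at HH17-18. All HH17-18 pools were below all others. The log2 fold change was -0.49 against HH13-14 (SE 0.16, edgeR adjusted p 0.118) and -0.60 against HH15-16. ADAM28 had 4, 0 and 4 counts at HH13-14, 0, 15 and 33 at HH15-16 and 10, 34 and 43 at HH17-18. The estimate of 3.40 on the log2 scale (SE 1.18, edgeR adjusted p 0.130) was imprecise at these counts, with a 95% interval of 0.79 to 6.02. DESeq2 put both past the threshold.

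The macrophage list moved over the same stages. All 9 of its markers were higher over the interval at an unadjusted p under 0.05, where 11.8% of all genes were. The edgeR adjusted threshold was passed upward by 5, where 2.4% of all genes did. Among these were CSF1R (log2 fold change 3.31), the receptor that macrophages need, and SPI1 (4.35), a transcription factor of the lineage. The summed level of the list was 18.5 to 24.3 CPM at HH13-14, 22.7 to 51.1 CPM at HH15-16 and 49.3 to 98.6 CPM at HH17-18. ADAM28 was highest in the pool with the highest sum, pool 3 of HH17-18, and ADAM8 was lowest in the stage with the highest sums. Whether macrophage content had a part in either was not tested.

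ADAMs without a catalytic site bind partners rather than cut them, and ADAM11, ADAM22 and ADAM23 are neuronal proteins that bind the secreted LGI proteins. ADAM11 (ENSGALG00010021782, chromosome 27, 872761 to 883682) rose. It had 2.36, 2.04 and 1.77 CPM at HH13-14, 2.71, 2.96 and 2.31 CPM at HH15-16 and 3.03, 4.39 and 4.40 CPM at HH17-18, so that the outer stages did not overlap. The rise was 1.91-fold, or 0.94 on the log2 scale (SE 0.23, edgeR adjusted p 0.0473). The call was the least stable of the 7, lost in 11 of 19 alternatives with adjusted p-values from 0.00166 to 0.173. ADAM23 had 13.1, 15.3 and 18.4 CPM at HH13-14, 13.4, 22.8 and 19.4 CPM at HH15-16 and 20.5, 23.5 and 19.5 CPM at HH17-18. Its outer stages did not overlap, and the edgeR adjusted p was 0.220. ADAM22 had 12.8, 13.2 and 12.9 CPM, a log2 fold change of 0.02 with a 95% interval of -0.37 to 0.41.

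Some neuronal markers rose over the same interval as ADAM11. Of 9 neuronal markers tested, 3 passed the threshold upward, where 2.4% of all genes did. These were NEFL, NEFM and STMN2, with log2 fold changes of 0.89, 1.22 and 1.83. The rest did not pass, with log2 fold changes from 0.09 for ISL1 to 1.27 for SNAP25, and 0.14 for TUBB3. The summed level of the list, most of which came from TUBB3, was 1077 to 1138 CPM at HH13-14 and 1169 to 1856 CPM at HH17-18. The part of neuron content in the change of ADAM11 was not tested.

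None of the 7 proteoglycan-cleaving ADAMTS genes tested passed the threshold. ADAMTS9, which cuts versican, had 24.7, 25.3 and 31.9 CPM at HH13-14, 25.8, 27.1 and 20.8 CPM at HH15-16 and 20.1, 18.7 and 18.5 CPM at HH17-18. The outer stages did not overlap, and the log2 fold change was -0.52 (SE 0.14, edgeR adjusted p 0.0610). It passed in 5 of 19 alternatives, with adjusted p-values from 0.00811 to 0.210. ADAMTS4, an aggrecanase, went from 0.934 ± 0.0680 to 1.51 ± 0.298 CPM and ADAMTS15 from 15.8 ± 1.94 to 21.0 ± 2.88 CPM (SD, n = 3), and edgeR gave adjusted p-values of 0.181 for ADAMTS4 and 0.230 for ADAMTS15. ADAMTS5, the aggrecanase next to ADAMTS1 on chromosome 1, had 1.15, 1.28 and 1.48 CPM.

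ADAMTS1, ADAMTS8 and ADAMTS20 differed more between pools than between stages. ADAMTS8 had 56.8, 81.0 and 36.8 CPM at HH13-14, 66.9, 74.0 and 18.9 CPM at HH15-16 and 101, 10.4 and 35.9 CPM at HH17-18, so that pools 1 and 2 of HH17-18 were the highest and the lowest of all 9. Its coefficient of variation within HH17-18 was 95.1%, and its log2 fold change over the interval was -0.24 with a 95% interval of -1.76 to 1.27, turning to 0.07 without pool 2 of HH13-14 and to 0.23 without pool 2 of HH17-18. ADAMTS1, a versican-cleaving enzyme, had 29.2 CPM in pool 1 of HH17-18 but 84.0 and 86.1 CPM in pools 2 and 3. ADAMTS20, known in mouse for melanoblast survival, was at 40.0 CPM in pool 1 of HH15-16 and at 12.6 to 23.9 CPM in the other 8 pools. ADAMTS1 and ADAMTS20 are named here because of this spread, after their values were seen.

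The procollagen N-propeptidases did not pass the test in either direction. ADAMTS14 had 47.1, 47.8 and 49.6 CPM at HH13-14, 44.3, 64.4 and 64.6 CPM at HH15-16 and 48.2, 81.5 and 54.5 CPM at HH17-18. Its pools overlapped between stages, and the change was 0.35 on the log2 scale (SE 0.19, edgeR adjusted p 0.329). ADAMTS3 had stage means of 28.9, 35.6 and 31.3 CPM, and ADAMTS2 had 0.744, 0.521 and 0.830 CPM.

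Of the 8 other ADAMTS genes, ADAMTS17 and ADAMTS18 rose. ADAMTS17 (ENSGALG00010018887, chromosome 10, 17121687 to 17286732), which in human is linked to a short-stature and lens disorder of microfibrils, had 4.58, 7.24 and 5.97 CPM at HH13-14, 5.61, 9.89 and 10.2 CPM at HH15-16 and 9.62, 16.0 and 15.1 CPM at HH17-18. The outer stages did not overlap, and pool 1 was the lowest of its stage each time. The rise was 2.29-fold (log2 fold change 1.19, SE 0.28, edgeR adjusted p 0.0396), lost in 8 of 19 alternatives with adjusted p-values from 0.000517 to 0.162. ADAMTS18 (ENSGALG00010007698, chromosome 11, 13434716 to 13504432), linked in human to inherited eye disease, had 11.3, 8.66 and 9.60 CPM at HH13-14, 12.8, 15.3 and 13.2 CPM at HH15-16 and 14.8, 17.4 and 16.6 CPM at HH17-18. Its pools of HH13-14 were below all later pools. The rise was 1.65-fold (log2 fold change 0.72, SE 0.14, edgeR adjusted p 0.0253), lost in 7 of 19 alternatives with adjusted p-values from 7.17e-05 to 0.112.

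The rest of this group did not pass. ADAMTS10, a microfibril-associated relative of ADAMTS17, went from 13.1 ± 1.14 to 22.5 ± 5.22 CPM (SD, n = 3, edgeR adjusted p 0.108). ADAMTS13, the protease of von Willebrand factor, went from 5.05 ± 0.334 to 8.93 ± 2.09 CPM (edgeR adjusted p 0.0778). Both passed the threshold in 4 of 19 alternatives. ADAMTS7, which cuts the cartilage matrix protein COMP, had 28.4 to 33.6 CPM at HH13-14, 31.9, 27.8 and 34.0 CPM at HH15-16 and 29.6, 29.5 and 30.7 CPM at HH17-18, with a log2 fold change of -0.08 and a 95% interval of -0.32 to 0.16. ADAMTS6, ADAMTS12 and ADAMTS19 gave log2 fold changes of 0.29, 0.03 and -0.17.

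All 4 ADAMTS-like genes had log2 fold changes above 0 over the interval, and ADAMTSL2 passed the threshold. ADAMTSL2 (ENSGALG00010028876, chromosome 17, 7577817 to 7598175) binds fibrillin and latent TGF-beta binding protein. It had 12.3, 11.1 and 10.8 CPM at HH13-14, 10.6, 18.2 and 14.3 CPM at HH15-16 and 19.5, 69.1 and 31.6 CPM at HH17-18. All HH17-18 pools were above all earlier ones, but they spread over a wide range, with a coefficient of variation of 64.6%. The log2 fold change was 1.81 (SE 0.38, edgeR adjusted p 0.0307), and without pool 2 of HH17-18 it was 1.16. The call was lost in 6 of 19 alternatives, which were each HH13-14 pool, HH17-18 pool 2 or pool 3 left out and a threshold of 0.01, with adjusted p-values from 0.00378 to 0.122. In RefSeq its span overlaps FAM163B, which fell over the same interval by 1.43 on the log2 scale (edgeR adjusted p 0.00588). ADAMTSL3 had 0.837, 1.29 and 1.47 CPM at HH13-14, 0.869 to 2.20 CPM at HH15-16 and 1.95, 3.55 and 4.56 CPM at HH17-18 (log2 fold change 1.48, SE 0.41, edgeR adjusted p 0.0699), and passed in 7 of 19 alternatives, the replicate block among them. ADAMTSL1 went from 15.2 ± 4.55 to 22.1 ± 5.86 CPM, and ADAMTSL5 had 0 to 11 counts in the pools of HH13-14 and 6 to 25 at HH17-18.

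Some members lie side by side in GRCg7b. ADAMTS13 and ADAMTSL2 are 45855 bases apart on chromosome 17, and ADAMTS8 and ADAMTS15 are 4209 bases apart on chromosome 24. ADAMTS1 and ADAMTS5 are 26905 bases apart on chromosome 1. Other members overlap a further gene in RefSeq, among them ADAMTS17 with LYSMD4 (log2 fold change -0.07), TIMP3 with SYN3 (0.60), MMP17 with ULK1 (0.14) and ADAMTS13 with REXO4 (-0.36), none past the threshold by edgeR. Sharing of reads between overlapping genes was not tested.

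In the separate steps, no member passed the threshold. From HH13-14 to HH15-16, edgeR gave 0 of 47 members, where 0% of all genes were called, and DESeq2 also gave 0, with 103 genes called in all. At an unadjusted p under 0.05 there were 2 higher (ADAMTS18 and MMP9) and 1 lower (MMP17), that is 4.26% and 2.13%, beside 5.29% and 4.84% of all genes. Pools of the stages did not overlap in 4 higher members (8.03% of all genes) and 5 lower ones (8.6%). From HH15-16 to HH17-18, edgeR again gave 0 of 47, where 0.0169% of all genes were called higher and 0.0621% lower. DESeq2 gave ADAM12 and ADAMTS13 higher and ADAM8 lower, among 345 genes it called in all. At an unadjusted p under 0.05 there were 10 higher (21.3%, against 5.1% of all genes) and 3 lower (6.38%, against 4.21%). By non-overlap of pools there were 10 higher (5.94% of all genes) and 3 lower (5.55%). The 10 at an unadjusted p under 0.05 were ADAM11, ADAM12, ADAMTS10, ADAMTS13, ADAMTS15, ADAMTS17, ADAMTSL2, ADAMTSL3, MMP24 and TIMP4, and the 3 were ADAM8, ADAMTS9 and MMP9. The steps share the HH15-16 pools, so their values are not independent.

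The difference between the later and the earlier step passed the threshold in 0 of 47 members, where 0.00564% of all genes did. At an unadjusted p under 0.05 edgeR gave 2 members higher and 2 lower (1.66% and 2.7% of all genes), and DESeq2 gave 0 past its adjusted threshold. MMP9, gelatinase B, had 9, 18 and 14 counts at HH13-14, 19, 61 and 36 at HH15-16 and 16, 4 and 17 at HH17-18, with steps of 1.32 and -1.55 on the log2 scale. MMP17 (MT4-MMP), which is held in the membrane by a lipid anchor, had 60.2, 64.7 and 63.5 CPM, then 38.9, 42.9 and 57.4 CPM, then 49.8, 53.7 and 63.4 CPM, with steps of -0.44 and 0.26. For ADAM8 the steps were 0.11 and -0.60, and for ADAMTS13 they were -0.07 and 0.90. The edgeR adjusted p of the difference was 0.932 for each of the 4. These members are named as all those with an unadjusted p under 0.05.

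**Figure D3:**
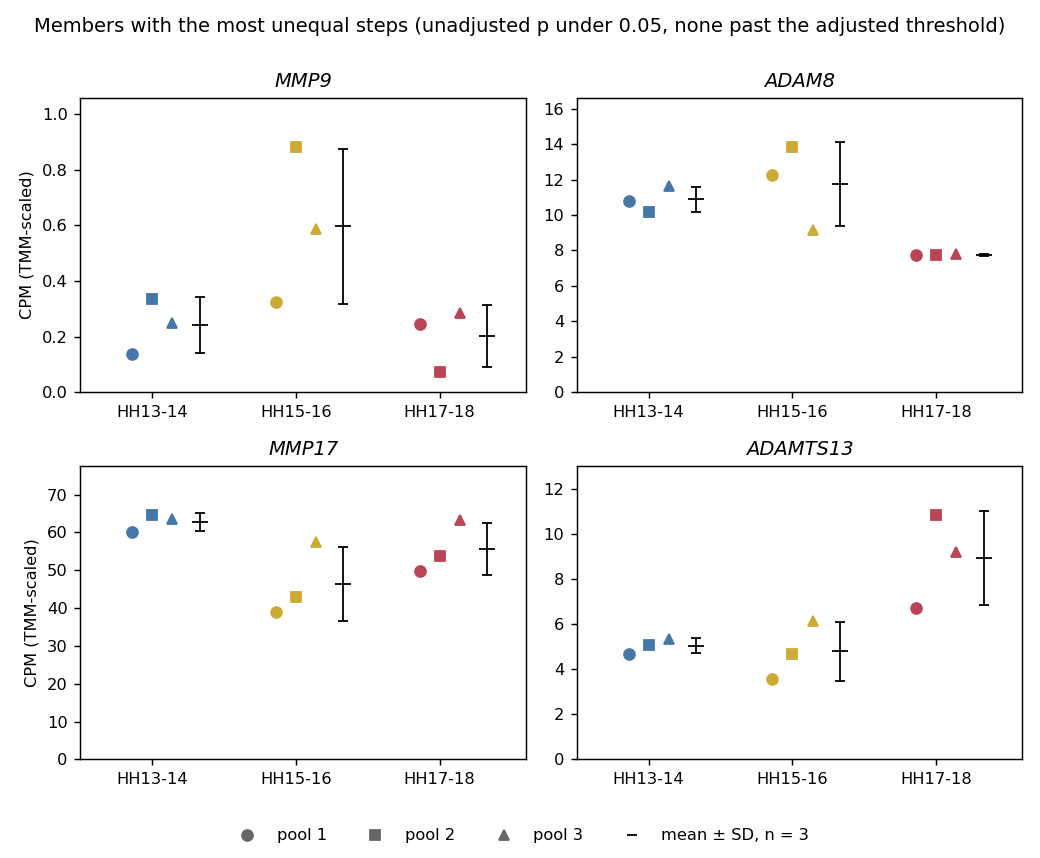
CPM (TMM-scaled, vertical axes from 0) in each pool by stage for the 4 members whose steps differed at an unadjusted p under 0.05, with the mean ± SD of 3 pools. MMP9 is highest in pools 2 and 3 of HH15-16 and MMP17 is lowest in pool 1 of HH15-16. At HH17-18 the pools of ADAM8 lie below, and those of ADAMTS13 above, all earlier pools.

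Many members had their highest or lowest level in the same pool. These extremes are taken over all 9 pools, so they also carry the difference between stages. Whether members varied together within a stage was not tested. Pool 2 of HH17-18 held the highest level of 20 of the 47 members tested (42.6%, against 17.6% of all genes tested), among them MMP2, TIMP4, ADAM12, ADAMTSL2, ADAMTS17 and ADAMTS18. Pool 1 of HH15-16 held the lowest level of 17 members (36.2%, against 20.1% of all genes), among them ADAM19, ADAM33, ADAMTS1, ADAMTS10 and ADAMTSL2. These were the pools with the highest and the lowest summed level of the head mesenchyme list, at 2319 and 924 CPM. Other lists had extremes in the same pools. Pool 1 of HH15-16 also had the lowest sum for neurons (892 CPM), placode (227 CPM) and endothelium (327 CPM). It was lowest as well for skeletal muscle (23.7 CPM), erythroid cells (603 CPM) and surface ectoderm (120 CPM). Pool 2 of HH17-18 also had the highest endothelium sum (548 CPM) and the lowest neural tube sum (32.3 CPM). The head mesenchyme sum was 1322 to 1358 CPM at HH13-14, 924 to 1907 CPM at HH15-16 and 1508 to 2319 CPM at HH17-18. Of the 9 markers in that list, 1 passed the threshold upward over the interval, OSR2, where 2.4% of all genes did.

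**Figure D4:**
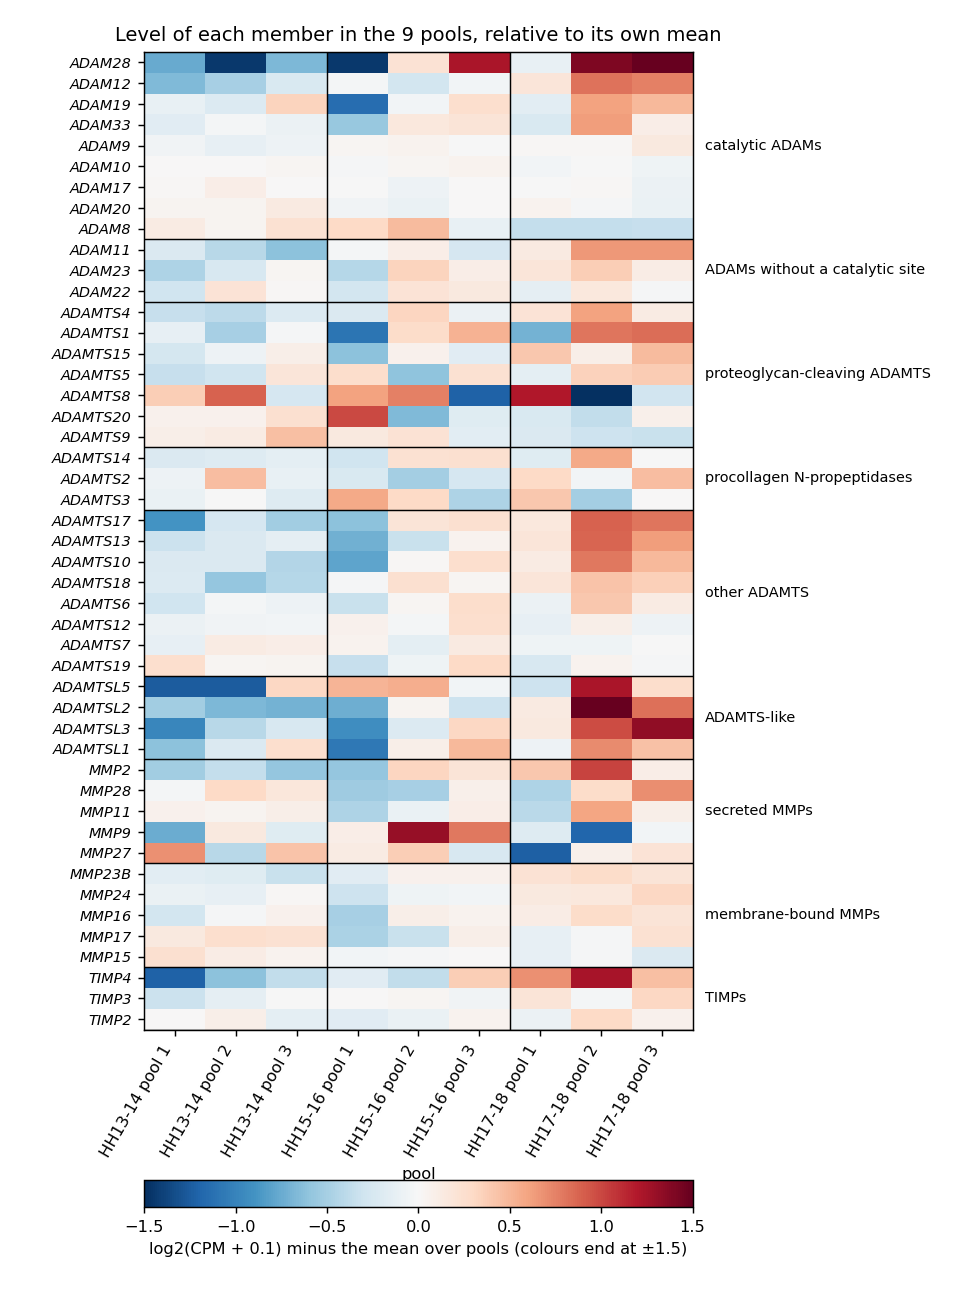
Level of each of the 47 members tested in the 9 pools, as log2(CPM + 0.1) minus the gene's own mean over pools, with colours ending at ±1.5. Red marks levels above and blue levels below the gene's mean. Pool 2 of HH17-18 is red for many ADAM, ADAMTS, ADAMTS-like and MMP genes, pool 1 of HH15-16 is blue for many of the same rows, and ADAMTS8 runs against this pattern.

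Levels were also set relative to the head mesenchyme list, a measure chosen after the values were seen. The list sum was 1322 to 1358 CPM at HH13-14 and 1508 to 2319 CPM at HH17-18. Dividing by it therefore lowers the ratio of HH17-18 to HH13-14 for any gene, the 7 members that rose included. Per 1000 CPM of that list in the same pool, MMP2 had 45.0 to 51.0 CPM in the pools of HH13-14 and 52.9 to 78.0 at HH17-18, a ratio of means of 1.46 where the unscaled fold was 2.06. ADAMTSL2 had 8.16 to 9.28 and 12.9 to 29.8, a ratio of 2.35 where the unscaled fold was 3.50. ADAM12 had 5.92 to 8.10 and 9.41 to 11.7, without overlap. ADAMTS17, TIMP4 and ADAM11 were likewise higher in every pool of HH17-18. ADAMTS10, which was not called, was also wholly higher, with 8.91 to 10.4 at HH13-14 and 11.5 to 12.4 at HH17-18. ADAMTS1 overlapped, and so did ADAMTS18, with 6.37 to 8.47 at HH13-14 and 7.50 to 9.79 at HH17-18. ADAM33 was lower on this scale in every pool of HH17-18, with 23.5 to 25.3 and then 19.8 to 23.3. Its unscaled pools overlapped, with a log2 fold change of 0.30, so the lower values came with the division by the list sum. The scale was computed only for the members named in this paragraph. The share of all genes wholly higher or lower on it is not known, so these separations have no background to be set against. COL1A2 and LUM, which also stand in the list of matrix substrates, made up most of the list sum. No test was made on this scale, and the part of mesenchyme content in these changes was not tested.

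The members with the widest spread did not all follow that list. ADAMTS20 was highest in pool 1 of HH15-16, the pool with the highest neural tube sum. ADAMTS8 was lowest in pool 2 of HH17-18, the pool with the lowest neural tube sum (32.3 CPM), but highest in pool 1 of HH17-18, where that sum was 71.6 CPM. ADAMTS1 was lowest in pool 1 of HH15-16, where the mesenchyme sum was lowest, and next lowest in pool 1 of HH17-18, where it was 1508 CPM. The part of either tissue in these levels was not tested.

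**Figure D5:**
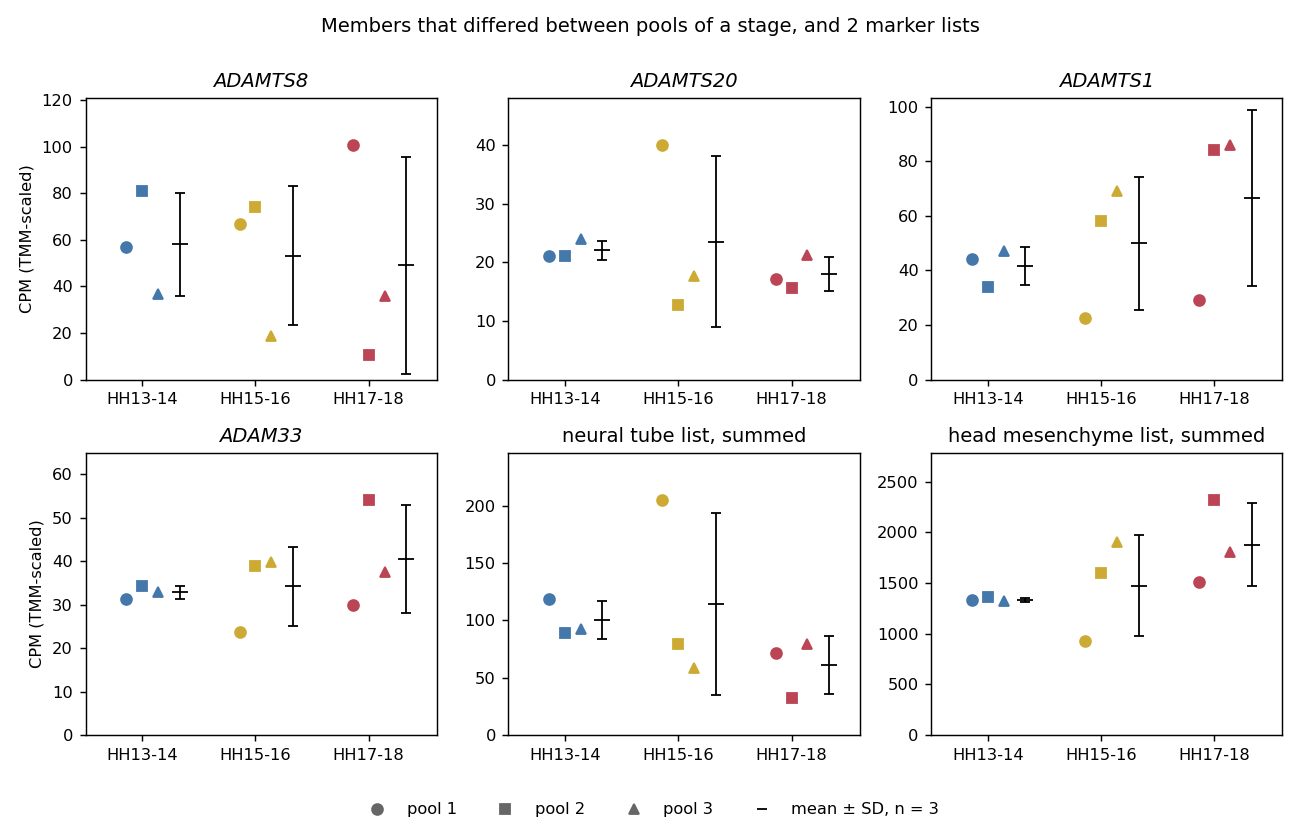
CPM (TMM-scaled, vertical axes from 0) in each pool by stage for ADAMTS8, ADAMTS20, ADAMTS1 and ADAM33, and the summed CPM of the neural tube and head mesenchyme marker lists, with the mean ± SD of 3 pools. ADAMTS8 spans 10.4 to 101 CPM within HH17-18, and pool 1 of HH15-16 is highest for ADAMTS20 and the neural tube list and lowest for ADAMTS1, ADAM33 and the mesenchyme list.

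Lists of companion genes were read by the same test. The list of regulators and activators was written with 30 symbols, of which 22 were found, and it includes genes of procollagen processing. Of the 21 tested, 0 rose and 3 fell over the interval, that is 14.3% lower where 2.12% of all genes were. These were PCSK5, a proprotein convertase, which fell by 0.75 on the log2 scale (SE 0.12, edgeR adjusted p 0.0117), PCOLCE2, an enhancer of procollagen C-proteinase, by 0.89 (edgeR adjusted p 0.0334), and TLL1, a tolloid-type procollagen protease, by 0.58 (edgeR adjusted p 0.0243). PCOLCE2 and TLL1 stand in the list for procollagen processing, so the share is not one of regulators of ADAM, ADAMTS and MMP enzymes alone. The inhibitor RECK and the MMP inducer BSG did not pass, at 0.36 (edgeR adjusted p 0.128) and -0.24 (edgeR adjusted p 0.149) on the log2 scale.

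Of 27 matrix substrates tested, 2 rose and 1 fell, that is 7.41% and 3.7%, beside 2.4% and 2.12% of all genes. The proteoglycan decorin (DCN) rose from 210 to 401 CPM and the hyaluronan link protein HAPLN1 from 17.2 to 39.0 CPM, with log2 fold changes of 0.93 and 1.18 (edgeR adjusted p 0.0360 and 0.00514). The related HAPLN3 fell by 0.84 (edgeR adjusted p 0.00630). Versican (VCAN) had 406, 458 and 451 CPM by stage, and COL4A1 and COL4A2, chains of the type IV collagen that MMP2 cuts, gave log2 fold changes of 0.33 and 0.37 (edgeR adjusted p 0.290 and 0.170). Of 28 membrane substrates tested, 0 rose and 0 fell at the adjusted threshold, with 8 higher (28.6%, beside 11.8% of all genes) and 3 lower (10.7%, beside 9.83%) at an unadjusted p under 0.05. Among them CDH6, the gene of cadherin-6B, had 5.92, 6.65 and 8.94 CPM (edgeR adjusted p 0.0996) and NOTCH1 had 234, 256 and 320 CPM (edgeR adjusted p 0.216).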

How the data were processed

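Poly(A)-enriched libraries were made with a TruSeq kit, per the labels' protocols. The authors deposited whole-number counts per gene for 18 libraries, and the submitters' processing notes name Trim Galore, HISAT2, featureCounts and the build GRCg7b, without versions, strand setting or whether reads or fragments were counted. All 18 columns were matched by name, and 0 were left unused. Technical libraries of a pool (chi-square per degree of freedom 2.14 to 2.33, against 8.1 to 43.5 for different pools of a stage) were summed, as the labels call them technical replicates, giving n = 3 pools per stage. The labels do not say that pools came from separate collections, so p-values measure the spread between pools.

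Genes kept by filterByExpr (17724 of 30108) entered a single quasi-likelihood fit of edgeR 4.0.16 in R 4.3.3 (glmQLFit with legacy = TRUE, no covariates, TMM). P-values are two-sided and Benjamini-Hochberg adjusted over all genes tested. The SE is that implied by the test statistic. Alternatives used DESeq2 1.42.0, limma 3.58.1 voom with sample weights, other filters, single lanes, a replicate block and pools left out. The edgeR, DESeq2 and limma steps were tested on simulated counts. Coordinates are from RefSeq (GRCg7b), matched by symbol for 49 of 52 members.

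Members and lists were chosen with earlier results of these data known. Values in every pool are given for members past the threshold, the largest changes in each direction at an unadjusted p under 0.05 (up to 6), the member of highest mean CPM in each role group, and TIMPs. Members of widest spread (5) and those not tested are given as values. Other members named were chosen after their values were seen.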

Additional observations from a re-analysis of the deposited data

How the results depend on the processing

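Over HH13-14 to HH17-18, where 7 members were higher and 0 lower, DESeq2's test gave 12 higher and 3 lower, limma voom 11 and 2, the pair of stages alone 10 and 1, lane 7 alone 4 and 0, and an adjusted p under 0.01 gave 0 and 0. Over all genes, DESeq2's test called 1037 higher and 747 lower and limma voom 937 and 807. The pair of stages alone called 765 and 625 genes, and lane 7 alone 308 and 292. Leaving out 1 pool gave 0 to 11 members higher and 0 to 2 lower. From HH15-16 to HH17-18, DESeq2's test gave 2 higher and 1 lower, among 345 genes called in all, and every other alternative gave 0 members. The earlier step and the difference between steps gave 0 under every alternative. All 7 called members kept their direction in all 19 alternatives. Leaving out a pool could not turn it, since in these members every pool of HH17-18 lay above every pool of HH13-14. The threshold of 0.01 was applied to the main fit, so it could not turn a direction either. Each of the 7 calls had to be lost there (edgeR adjusted p 0.0179 to 0.0473), and no uncalled member could pass. ADAMTS8, uncalled, ran from -1.33 to 0.23 on the log2 scale when pools were left out, and changed sign to 0.07 and 0.23. The causes were not tested.

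With a replicate block 7 members were called, 6 of them shared (ADAM11 was lost, ADAMTSL3 gained). The labels do not say whether equal replicate numbers at different stages share a source. Pool deviations correlated at a mean of 0.0658 (-0.0633 to 0.303, 9 pairs) for equal numbers. For unequal ones the mean was -0.0332 (-0.399 to 0.322, 18 pairs). So few overlapping values cannot show whether a source was shared. Few counts limit ADAM28, ADAMTSL5, MMP9 and MMP27, and 13 alternative values of such members were not estimated.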
